A study of Macaca mulatta with 28 samples.

Results

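The first cohort of a study of chronic voluntary alcohol drinking in rhesus macaques is described here, 8 drinkers against 8 controls, 16 of the 28 animals whose ventral tegmental area (VTA) was sequenced. Membership was set by the animal numbers and phenotypes in the sample titles, the drinkers running from Heavy-10208 to Very Heavy-10215 and the controls from Control-10216 to Control-10223. All were adult, wild-type male macaques. The drinkers began self-administration of ethanol under schedule-induced polydipsia, a procedure in which spaced food pellets bring on drinking, then had open access to ethanol for most of each day, interrupted by imposed abstinence. The tissue was taken at the end of a last abstinence of 30 days, so every drinker was sober at sampling. By phenotype, 1 drinker was Low (Low-10210), 4 were Heavy and 3 Very Heavy. Controls were either yoked to the calories of a drinker or kept as housing controls, and the titles do not separate these kinds. One bulk library per animal was made from a frozen tissue punch, so a value is the average over every cell in the punch, and fewer cells of a type cannot be told apart from less RNA per cell. The comparison asks which transcripts and pathways still differed after abstinence, and whether the base composition of the libraries moved with the groups.

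The VTA holds the cell bodies of the dopamine neurons that project to the nucleus accumbens, mixed with GABA and glutamate neurons, myelinating oligodendrocytes, astrocytes and microglia. Tyrosine hydroxylase (TH) makes the dopamine precursor, the transporters SLC6A3 and SLC18A2 move dopamine across the cell and vesicle membranes, and DRD2 and the kappa opioid receptor OPRK1 restrain its release. In sequencing, the share of GC bases in a transcript also affects how well its fragments are recovered, and libraries can differ in the strength of that dependence. A transcript rich in GC can therefore look lower in one library than in another with no change in the cell.

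A total of 13086 transcripts reached 5 counts in 3 or more of the 16 animals, and 5 of them differed at an adjusted p under 0.05 (0.0382%; edgeR quasi-likelihood test, Benjamini-Hochberg adjustment). STMN1, TATDN1 and ZC3H15 rose in drinkers, and KMT2B and ZSWIM8 fell. At an unadjusted p under 0.05, 633 transcripts were higher (4.84%) and 697 lower (5.33%). In what follows, a member of a gene list is said to have risen or fallen at this unadjusted threshold, and each such count is to be read against these background shares. Whether the groups overlapped was also counted, and 12 transcripts (0.0917%) lay higher in every drinker than in any control while 16 (0.122%) lay lower. After the GC correction these were 7 and 2, and with DESeq2's size factors 13 and 10.

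Stretches of coding sequence are given for 4 of the 5 transcripts that passed, TATDN1 left out, with G and C in capitals. They show how far transcripts on either side of the comparison could differ in base composition. Each is the first 120 bases of the longest coding exon in the RefSeq annotation of the rhesus build Mmul_10, read 5′ to 3′ on the strand of the gene. STMN1 at chr1:198899657-198899776 (plus strand) and ZC3H15 at chr12:73615104-73615223 (plus strand) were higher in drinkers, and KMT2B at chr19:35132965-35133084 (plus strand) and ZSWIM8 at chr9:64015317-64015436 (minus strand) were lower.
STMN1: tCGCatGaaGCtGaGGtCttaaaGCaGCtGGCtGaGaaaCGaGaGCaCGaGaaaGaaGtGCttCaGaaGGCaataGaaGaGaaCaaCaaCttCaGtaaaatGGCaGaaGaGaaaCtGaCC
ZC3H15: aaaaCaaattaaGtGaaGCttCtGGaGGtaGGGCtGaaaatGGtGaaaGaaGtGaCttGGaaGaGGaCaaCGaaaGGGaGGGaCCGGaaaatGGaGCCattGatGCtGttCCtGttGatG
KMT2B: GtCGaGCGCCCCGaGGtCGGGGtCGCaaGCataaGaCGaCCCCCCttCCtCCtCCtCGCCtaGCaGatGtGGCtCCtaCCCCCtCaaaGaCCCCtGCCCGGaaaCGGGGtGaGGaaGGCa
ZSWIM8: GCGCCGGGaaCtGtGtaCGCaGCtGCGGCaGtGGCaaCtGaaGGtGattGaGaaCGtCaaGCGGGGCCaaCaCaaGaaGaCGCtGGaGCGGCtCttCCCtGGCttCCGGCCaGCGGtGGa
G or C made up 45.0% of the stretch in STMN1 and in ZC3H15, against 65.8% in KMT2B and 63.3% in ZSWIM8. Over whole transcripts the shares were 45.9% for STMN1, 39.5% for ZC3H15, 63.9% for KMT2B and 60.5% for ZSWIM8.

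STMN1 encodes stathmin, a protein that binds tubulin and promotes the disassembly of microtubules. Its listed transcript had 8.24 to 12.7 CPM (counts scaled by TMM to a common library size; median 9.96) in drinkers and 0.545 to 2.76 CPM (median 1.61) in controls. Every drinker, the Low drinker included, lay above every control. The means were 10.2 ± 1.81 CPM (SD, n = 8) and 1.66 ± 0.660 CPM (SD, n = 8), a log2 fold change of 2.61 ± 0.28 (SE; edgeR quasi-likelihood test, adjusted p = 0.000565), or 6.11-fold. Correcting each library for its trend of counts on GC content left it at 2.57 (adjusted p = 0.000623). With the GC slope of each library as a covariate it was 2.25 and did not pass (edgeR, adjusted p = 0.331). The gene has several transcripts and the table lists 1 of them, so the value is that of this transcript and not of the gene as a whole.

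TATDN1, a member of the TatD family of deoxyribonucleases, had 28.4 to 40.6 CPM (median 33.4) in drinkers and 12.5 to 22.4 CPM (median 18.7) in controls, with no overlap. Its log2 fold change was 0.87 ± 0.13 (SE; edgeR quasi-likelihood test, adjusted p = 0.0230) and 0.72 after the GC correction (adjusted p = 0.0375), but it was 0.55 (adjusted p = 0.962) with the GC slope as a covariate. It was 0.65 (edgeR, adjusted p = 0.156) with GC and length corrected together and 0.86 (adjusted p = 0.23) with a neuron marker score as a covariate. Its call was also lost without any of Low-10210, Heavy-10213, Control-10217, Control-10219, Control-10220 or Control-10221 (edgeR, adjusted p from 0.0513 to 0.0713). STMN1 and TATDN1 were the 2 transcripts (0.0153%) that passed with that correction, and both had passed without it.

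The other 3 passed as counted but not with the GC correction. ZC3H15, a zinc finger protein that binds the GTPase DRG1, had 109.9 to 131.5 CPM (median 113.8) in drinkers and 77.8 to 102 CPM (median 89.2) in controls, a log2 fold change of 0.39 ± 0.07 (SE; edgeR, adjusted p = 0.0423). KMT2B, a methyltransferase of histone H3 lysine, had 27.9 to 43.9 CPM (median 41.9) in drinkers and 54.8 to 61.0 CPM (median 57.2) in controls, a log2 fold change of −0.52 ± 0.08 (SE; edgeR, adjusted p = 0.0281). ZSWIM8, which directs a cullin ubiquitin ligase in the target-directed decay of microRNAs, had 121 to 138 CPM (median 127.8) in drinkers and 148.6 to 175.9 CPM (median 157.9) in controls, a log2 fold change of −0.31 ± 0.05 (SE; edgeR, adjusted p = 0.0423). None of the 3 overlapped between drinkers and controls. With GC corrected, their log2 fold changes shrank to 0.26, −0.31 and −0.15 in that order, with adjusted p = 0.435, 0.452 and 0.578 by edgeR. KMT2B was lowest in Very Heavy-10214, at 27.9 CPM against 38.4 to 43.9 CPM in the other 7 drinkers, and without that animal its log2 fold change was −0.46 (edgeR, adjusted p = 0.00149). Over the 16 omissions of a single animal, KMT2B kept its call in 4, and ZSWIM8 and ZC3H15 kept theirs in 0.

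**Figure D1:**
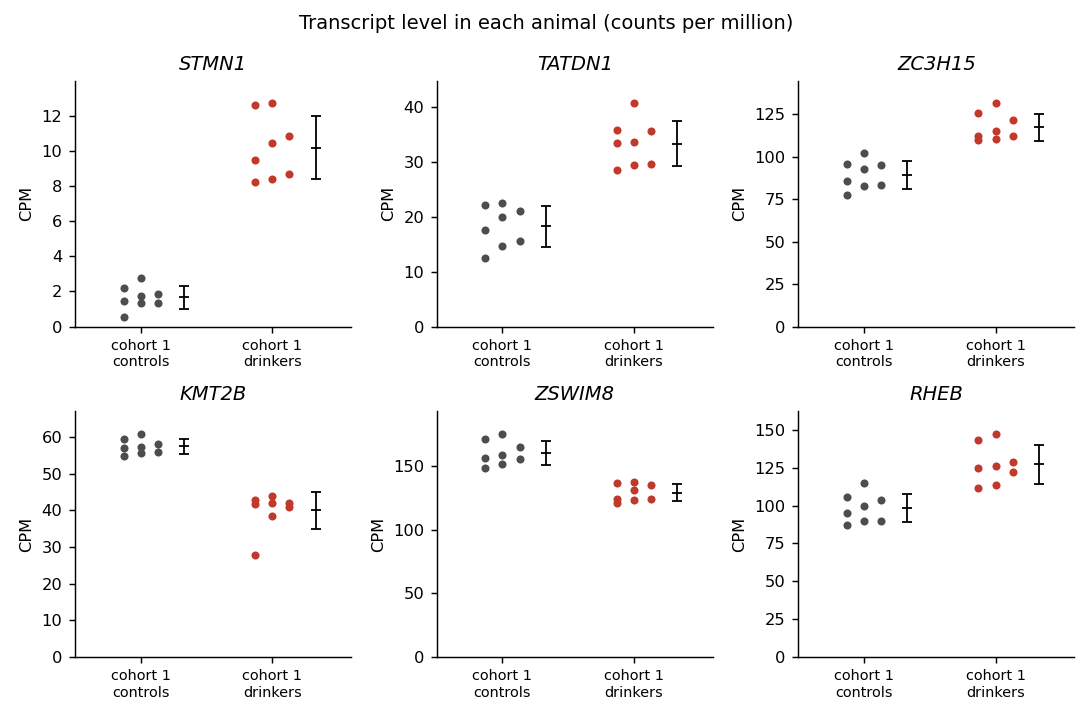
CPM of the 5 transcripts past the adjusted threshold and of RHEB in each animal of cohort 1 (points), with the mean and SD beside them (bars) and axes that start at 0. STMN1, TATDN1 and ZC3H15 were higher and KMT2B and ZSWIM8 lower in every drinker than in any control, whereas the lowest drinker of RHEB, at 111.6 CPM, lay below the highest control, at 115.1 CPM.

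The transcripts with the next lowest p-values, each with at least 10 counts in all 16 animals, divided by base composition in the same way. Those higher in drinkers were CCT6A (log2 fold change 0.28), a subunit of the chaperonin that folds actin and tubulin, NAE1 (0.41), which starts the attachment of NEDD8 to cullins, ADH5 (0.32), a class of alcohol dehydrogenase that mainly handles formaldehyde bound to glutathione, RHEB (0.37), the GTPase that activates mTORC1, MMADHC (0.46) of cobalamin handling, CCNG1 (0.46), TRMT10C (0.48) of mitochondrial tRNA processing, RTRAF (0.43) and CUL3 (0.61), a cullin scaffold. Their GC contents ran from 38.4% for CCNG1 to 46.8% for ADH5. Those lower in drinkers were CIC (−0.53), a transcriptional repressor, TRIM11 (−0.53), SLC12A9 (−0.50), PCSK1N (−0.79), an inhibitor of the prohormone convertase PCSK1, PRRC2A (−0.25), TPPP (−0.44), a tubulin polymerization protein of oligodendrocytes, TMEM151A (−0.68), FLCN (−0.46), a regulator of lysosomal mTORC1 signaling, MED12 (−0.35) of the Mediator kinase module, and H2AX (−0.48), the histone variant phosphorylated at DNA breaks. Their GC contents ran from 54.8% for MED12 to 73.9% for PCSK1N, above every one of the risen group. None of these 19 passed the adjustment, the nearest being CCT6A (edgeR, adjusted p = 0.0824), at 195.7 to 240.1 CPM in drinkers and 166 to 189.9 CPM in controls. With GC corrected, PRRC2A had a log2 fold change of −0.06 and no longer passed the unadjusted threshold, and the other 18 still did.

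Transcript GC content ordered the whole comparison. With the transcripts divided into 10 bins of GC content, the lowest bin, 30.8% to 39.7%, held a different balance from the highest. In the lowest bin the median log2 fold change was 0.15, with 152 transcripts higher in drinkers and 14 lower at p under 0.05. In the highest, 62.8% to 74.7%, it was −0.23, with 8 higher and 201 lower. The median fell at each step between them. The 633 higher transcripts had a median GC content of 42.8% and the 697 lower ones 59.9%, against 50.5% over all transcripts tested. Transcripts of the second cohort, 9 drinkers and 3 controls, had medians from −0.03 to 0.03 over the same bins, with the lower values at low GC.

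**Figure D2:**
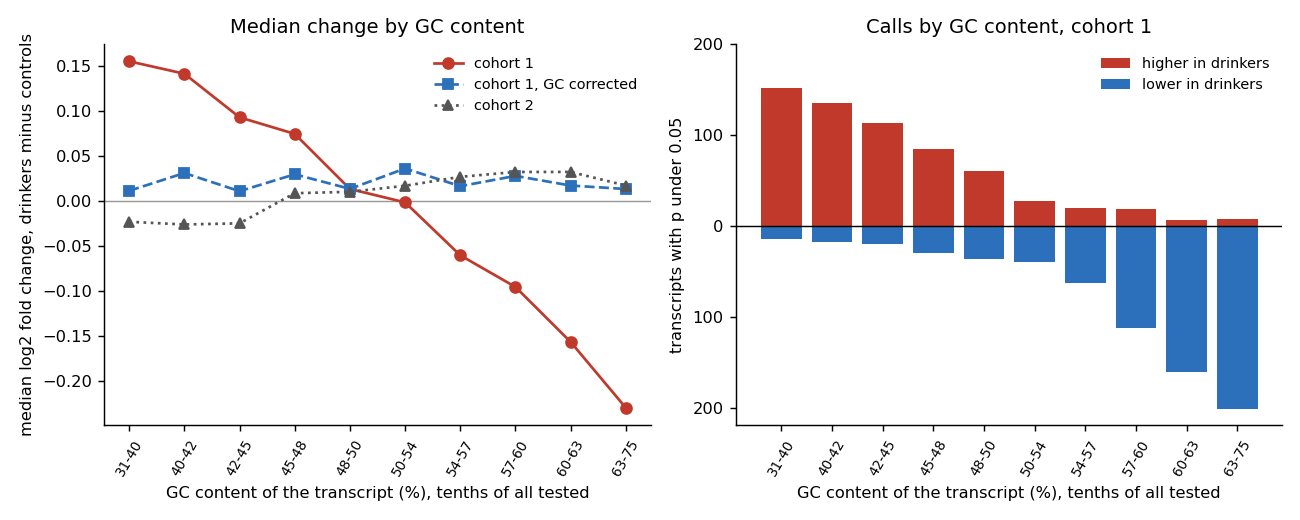
Median log2 fold change of drinkers against controls (left) and number of transcripts with p under 0.05 in cohort 1 (right) in 10 bins of the tested transcripts ordered by GC content. The cohort 1 median fell from 0.15 to −0.23 across the bins, the medians after the GC correction lay between 0.01 and 0.04, and those of cohort 2 between −0.03 and 0.03.

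The dependence was measured in each library as a slope, the change in log2 CPM relative to the mean of the 16 animals for every 10 percentage points of GC, over transcripts with at least 10 counts in all 16. Drinkers had slopes of −0.121 to 0.00441 (median −0.0896) and controls of −0.00335 to 0.181 (median 0.0703). The groups met only at their edges, where Heavy-10209 lay above Control-10221 and Control-10216. The mean difference of −0.142 exceeded what the spread of the animals gave in an exact permutation test (two-sided, all 12870 splits, p = 0.000466; Benjamini-Hochberg over 6 library measures, 0.00140). Placed on a scale shared by all 28 libraries, cohort 2 lay between, at −0.0453 to 0.0844 in its 9 drinkers and −0.0383 to 0.0251 in its 3 controls.

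The number of listed transcripts with any count also differed. Drinkers had 10554 to 11898 (median 11290) and controls 11718 to 12550 (median 11981.5), a mean difference of −757.4 (exact permutation test, two-sided, p = 0.000466; Benjamini-Hochberg, 0.00140), with 1 drinker inside the range of the controls. Cohort 2 had 11940 to 12676 in drinkers and 12380 to 12696 in controls. Transcripts with 1 to 4 counts numbered 215 to 488 in drinkers of cohort 1 and 488 to 1037 in its controls, a mean difference of −338.6, so they made up only part of the lack. This was a measure added after the data were seen and given without a test. Total counts (12303914 to 27338669 over the 16 libraries), the mitochondrial share, the share of the 10 most abundant transcripts and the slope on transcript length had adjusted p-values from 0.305 to 0.943 in the same family of tests. The labels used here give no date, lane or RNA integrity for a library, so a preparation that differed between drinkers and controls cannot be told apart from drinking.

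**Figure D3:**
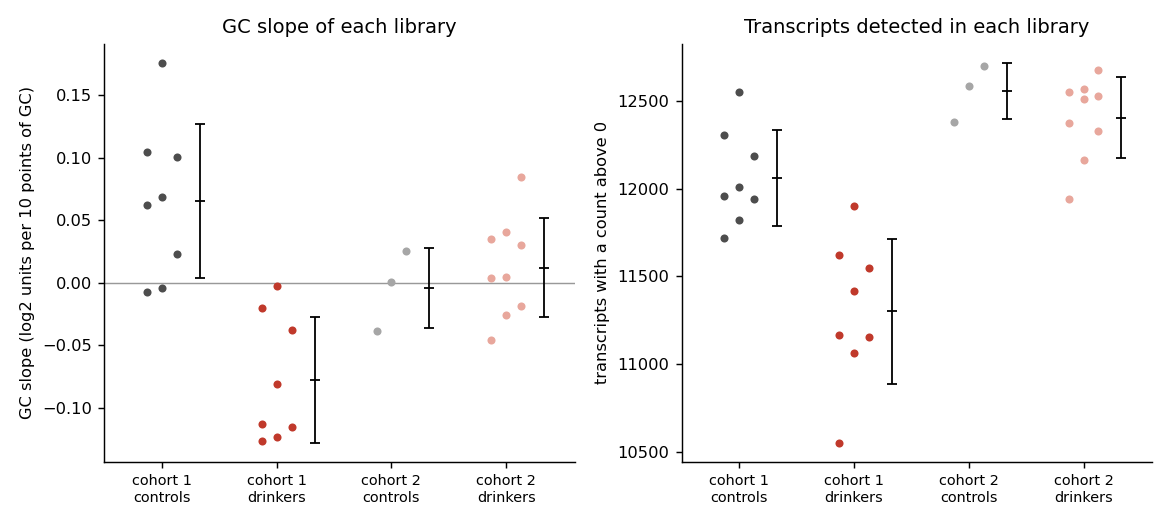
GC slope (left, log2 units for every 10 percentage points of GC, scale shared by 28 libraries) and number of transcripts with a count above 0 (right, axis not from 0) in each library (points), with the mean and SD (bars). Cohort 1 drinkers lay low in both measures, and their detected transcripts numbered 10554 to 11898 against 11718 to 12550 in cohort 1 controls.

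Removing the GC trend from each library brought the transcripts with p under 0.05 from 1330 (10.2%) to 848 (6.48%), of which 498 were higher (3.81%) and 350 lower (2.67%). Of the 1330, 635 kept both their direction and an unadjusted p under 0.05. The median change then lay between 0.01 and 0.04 in every GC bin. A second dependence, on length, came forward. Of the shortest of 10 length bins, 207 to 1104 bases, 109 transcripts were then higher and 12 lower, whereas in the longest, from 6503 bases, 17 were higher and 63 lower. As counted, these were 94 and 28 in the shortest bin and 26 and 82 in the longest.

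Several lists held more risen than fallen members, those of mitochondria and protein synthesis among them. Of 69 tested nuclear genes of oxidative phosphorylation, the chain that passes electrons to oxygen and makes ATP, 13 rose and 1 fell, with a median log2 fold change of 0.15 against −0.0047 over all transcripts. The risen members came from each part of the chain: NDUFB5, NDUFA12, NDUFB1, NDUFA9, NDUFS4 and NDUFV2 of complex I, SDHA of complex II, UQCRB and UQCRC2 of complex III, cytochrome c (CYCS), COX7B of complex IV, and ATP5PB and ATP5F1A of the ATP synthase. NDUFB2 of complex I fell (−0.50). NDUFB5 had 111.1 to 155.6 CPM (median 133) in drinkers and 92.1 to 118 CPM (median 106.4) in controls, a log2 fold change of 0.34 ± 0.08 (SE; edgeR, adjusted p = 0.127). SDHA, with a GC content of 55.8%, had 222 to 288 CPM (median 245.5) in drinkers and 188.6 to 237.9 CPM (median 214.9) in controls, a log2 fold change of 0.20 ± 0.07 (SE; edgeR, adjusted p = 0.262). The ranges of both overlapped.

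With the GC trend removed 13 members rose and 0 fell, 8 of them among the 13 above, and the median was 0.16. The members were short, with a median of 682 bases against 2762.5 over all transcripts, and with the length trend removed as well 5 rose and 2 fell, with a median of 0.07. In that fit 3.42% of all transcripts were higher and 2.48% lower. In cohort 2 the list had a median of −0.10, with 0 risen and 1 fallen. The 13 genes that mitochondria encode themselves showed another picture, since none rose or fell at an unadjusted p under 0.05 and their median was 0.03. None of the 69 or the 13 passed the adjusted threshold.

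The mitochondrial ribosome translates those 13 genes. Of 67 of its proteins 15 rose and 1 fell (median 0.10), and 51 did not pass. MRPL47 had 34.1 to 57.1 CPM (median 44.0) in drinkers and 29.2 to 44.3 CPM (median 34.3) in controls, a log2 fold change of 0.35 ± 0.11 (SE; edgeR, adjusted p = 0.233). MRPS35 (0.24), MRPL35 (0.29) and MRPS22 (0.34) rose by similar amounts, and MRPS26 fell (−0.24). With the GC correction 11 rose and 0 fell, and with the length trend removed too 6 rose and 0 fell. HSPA9 (log2 fold change 0.24) and the pair HSPD1 (0.63) and HSPE1 (0.56), which fold proteins inside mitochondria, rose as well. HSPA9 had 352.5 to 413.6 CPM (median 388.1) in drinkers and 285.9 to 378.9 CPM (median 326.6) in controls.

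In the cytosol, 10 of 58 translation factors rose and 1 fell (median 0.11), among them EIF1B (0.26), EIF3M (0.32), EIF5A2 (0.54) and EIF5 (0.20), and EIF3J fell (−0.65). Of 71 cytosolic ribosomal proteins 7 rose and 1 fell (median 0.08), RPS27L (0.42) and RPL38 (0.33) among the risen and RPS15 (−0.25) the fallen one. Of 37 proteasome subunits 6 rose and 0 fell (median 0.09), including PSMA3 (0.26), PSMA6 (0.27), PSMD5 (0.28) and PSMC1 (0.22). In the CCT chaperonin 4 of 9 rose (CCT6A, CCT2, CCT5 and CCT7), although CCT7 was at 0 counts in 2 drinkers and 4 controls. Of 38 heat shock and unfolded protein response genes 9 rose and 3 fell, the fallen being HSPA8 (−0.35), the constitutive HSP70, PDIA3 (−1.53) and HSPA1L (−0.41). Corrected for GC, the counts were 4 risen and 1 fallen for translation factors, 5 and 0 for cytosolic ribosomal proteins, 4 and 0 for the proteasome, 2 and 0 for CCT, and 5 and 2 for heat shock genes.

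**Figure D4:**
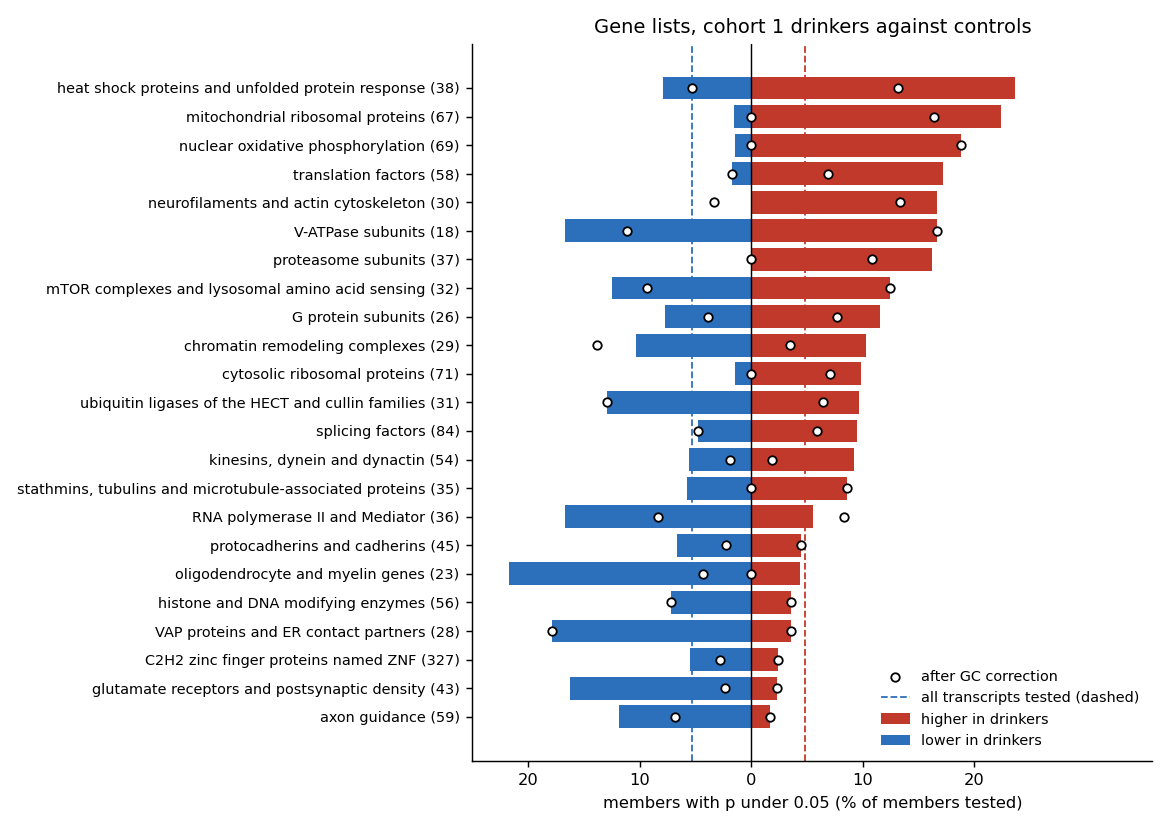
Share of tested members with p under 0.05 that were higher (red, right) or lower (blue, left) in cohort 1 drinkers, for the gene lists with at least 5 such members, with the number tested in brackets. Circles give the shares after the GC correction and dashed lines the 4.84% and 5.33% over all transcripts, and 13 of 69 nuclear oxidative phosphorylation genes rose under each, 8 of them under both.

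Some markers of neurons in general were also higher in drinkers, and their part in these results was not tested beyond the covariate given here. Of 9 tested, 3 rose, SNAP25 of synaptic vesicle release and the neurofilament chains NEFL and NEFH, and 0 fell. The summed CPM of the 9 was 4751 to 26533 (median 9029) in drinkers and 3326 to 12450 (median 5140) in controls, and RBFOX3, another of the list, was listed at 0 in all 16. NEFL had 1214 to 5050 CPM (median 2345) in drinkers and 906 to 2747 CPM (median 1323) in controls, a log2 fold change of 0.73 ± 0.33 (SE; edgeR, adjusted p = 0.455), and its cohort 2 value was −0.78. With a score over these neuron markers as a covariate, an alternative chosen after their values had been seen, 2 oxidative phosphorylation genes rose and 0 fell, 4 mitochondrial ribosomal proteins rose and 0 fell, and 0 proteasome subunits rose and 1 fell, whereas 7 translation factors rose and 1 fell and 9 cytosolic ribosomal proteins rose and 0 fell. Over all transcripts 3.0% were higher and 3.58% lower in that fit. The score and the groups differ together, so this fit also removes part of any change in the neurons themselves.

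Lists of the neuronal skeleton and traffic were mixed. Of 30 neurofilament and actin genes 5 rose and 0 fell, ARPC3, CAPZA2 and CAPZA1 of actin filaments beside the neurofilaments, and 4 rose and 1 fell with the correction, under which CAPZA1 and CAPZA2 did not pass. In cohort 2 the list had 0 risen and 5 fallen and a median of −0.20. Of 35 stathmin, tubulin and microtubule genes 3 rose (STMN1, MAPRE3 and TBCC) and 2 fell, TUBB4A, the tubulin abundant in oligodendrocytes (−0.43), and MAP1S (−0.32), neither of which passed once GC was corrected. Of 54 kinesin, dynein and dynactin genes 5 rose and 3 fell, KIF3A (0.72) and DYNC1LI1 (0.31) among the risen, but 1 rose and 1 fell with the GC correction, under which DYNC1LI1 did not pass. Of 17 synuclein and Parkinson disease genes 3 rose, SNCG (0.85), VPS35 (0.28) and SYNJ1 (0.30), and 0 fell, whereas corrected 2 rose and 1 fell and neither VPS35 nor SYNJ1 passed. Of 30 genes of synaptic vesicle release SNAP25 (0.51) and SYNJ1 rose.

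Genes of the mesolimbic dopamine system did not separate the groups. TH had 5.6 to 713 CPM (median 92.1) in drinkers and 5.78 to 806 CPM (median 142.5) in controls, and SLC6A3 10.7 to 825 CPM (median 90.9) and 6.34 to 670 CPM (median 110.4). The spread within each group far exceeded the difference between groups, and the summed dopamine neuron markers ran from 52.5 to 1690 CPM in drinkers and 49.9 to 1835 CPM in controls. The log2 fold changes were −0.57 ± 1.04 (SE) for TH, −0.09 ± 1.02 (SE) for SLC6A3, −0.29 ± 1.05 (SE) for SLC18A2 and −0.27 ± 1.16 (SE) for DRD2 (edgeR, adjusted p from 0.966 to 0.998). A change of 1 log2 unit was smaller than each of these standard errors and would not have been detectable. Of 12 tested genes of dopamine synthesis and transport, 2 rose and 0 fell, with SPR (0.31), a reductase that supplies the cofactor of TH, among the risen. None of 5 dopamine receptors rose or fell.

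Kappa opioid genes had smaller standard errors and overlapping groups. OPRK1 had 2.46 to 15.9 CPM (median 4.75) in drinkers and 1.82 to 22.6 CPM (median 6.43) in controls, a log2 fold change of −0.27 ± 0.50 (SE; edgeR, adjusted p = 0.966). PDYN, the precursor of dynorphin, had 3.01 to 26.7 CPM and 3.88 to 35.8 CPM, a log2 fold change of −0.43 ± 0.53 (SE; edgeR, adjusted p = 0.927). Of 7 opioid genes 1 was past the unadjusted threshold, the mu receptor OPRM1. It was at 0 in all 8 controls and in several drinkers, and at no more than 0.921 CPM in a drinker. Only drinkers brought it past the count filter, so no change is read from it. The arrestin ARRB1, which ends receptor signaling, had 19.3 to 30.0 CPM in drinkers and 21.4 to 33.1 CPM in controls (−0.16 ± 0.12, SE; edgeR, adjusted p = 0.761). GRK2 (−0.32) and RGS11 (−0.40) fell and RGS1, at 0 in most animals, rose among 21 arrestin, GRK and RGS genes, and with GC corrected neither GRK2 (−0.10) nor RGS11 (−0.17) passed. SLC17A6, 1 of 3 tested markers of glutamate neurons, had a log2 fold change of 0.63 ± 0.36 (SE; edgeR, adjusted p = 0.625) and SLC32A1 of GABA neurons one of 0.05 ± 0.21 (SE; adjusted p = 0.993), and the receptors DRD1 and DRD5 had −0.02 and −0.03. The other 2 glutamate markers lay below 0, and the median of the 3 was −0.55, with none past the unadjusted threshold.

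Few ion channels and transmitter receptors passed the unadjusted threshold. Of 63 potassium channels 0 rose and 2 fell, KCNC4 (−0.43) and KCNK4 (−0.52), with a median of −0.18 as counted and −0.12 after the GC correction. None of 22 calcium channels, 14 sodium and HCN channels, 23 genes of cAMP signaling or 10 serotonin receptors rose or fell as counted. After the GC correction NALCN of the sodium list fell (−0.25) and KCNC4 did not pass. Of 26 G protein subunits 3 rose and 2 fell. GABRQ (−0.98) was the 1 of 26 GABA and glycine genes to fall, and of 18 nicotinic and muscarinic receptors CHRNA10 and CHRNB4 fell, both at 0 in most drinkers. Of 15 neurotrophin genes 0 moved.

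Glutamate receptor and postsynaptic density genes leaned downward as counted. Of 43, 7 fell and 1 rose, GRM8 (0.57). The fallen included the scaffolds SHANK1 (−0.52) and SHANK3 (−0.68), DLGAP3 (−0.43) and DLGAP4 (−0.36), with GC contents from 57.5% to 66.9%. SHANK1, at 66.0% GC, had 69.4 to 128.9 CPM (median 88.3) in drinkers and 96.6 to 192 CPM (median 130.2) in controls. Once GC was corrected 1 fell and 1 rose, and SHANK1 stood at −0.25 (edgeR, adjusted p = 0.873). The 1 still fallen was GRIA2, listed at 0 in every drinker and in several controls, and its cohort 2 log2 fold change was 7.59. Among axon guidance genes, 7 of 59 fell and 1 rose as counted, and 4 fell and 1 rose with the correction. PLXNB1 (−0.38, then −0.22), PLXNB3 (−0.58, then −0.36) and UNC5C (−0.66, then −0.74) fell under both. Of 48 synaptic adhesion genes 1 rose and 2 fell, and of 45 cadherins and protocadherins 2 rose and 3 fell. With the correction 0 rose and 0 fell among the adhesion genes, and 2 rose and 1 fell among the cadherins and protocadherins.

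Oligodendrocyte and myelin genes also leaned downward as counted, with 5 of 23 fallen, 1 risen and a median of −0.18. SOX10, the factor that sets oligodendrocyte identity, had 278.9 to 511.9 CPM (median 398.9) in drinkers and 397 to 580 CPM (median 497.4) in controls, a log2 fold change of −0.32 ± 0.11 (SE; edgeR, adjusted p = 0.268). FA2H (−0.33) and MAL (−0.38) fell too, and BCAS1 (0.31) rose. With the correction 1 of the 23 fell, MYRF, the activator of myelin genes (−0.82 as counted, −0.67 corrected). The summed oligodendrocyte markers were 12450 to 21537 CPM in drinkers and 12919 to 21884 CPM in controls. Of 18 complement and microglia genes 1 rose and 1 fell, the integrin ITGAM (−0.29), and none of 32 innate immune genes moved. Of 63 collagen and matrix genes 0 rose and 4 fell, COL4A5 (−0.56) and COL11A1 (−0.49) under both analyses, and COL9A2 (−0.40) and LAMB2 (−0.22) only as counted.

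**Figure D5:**
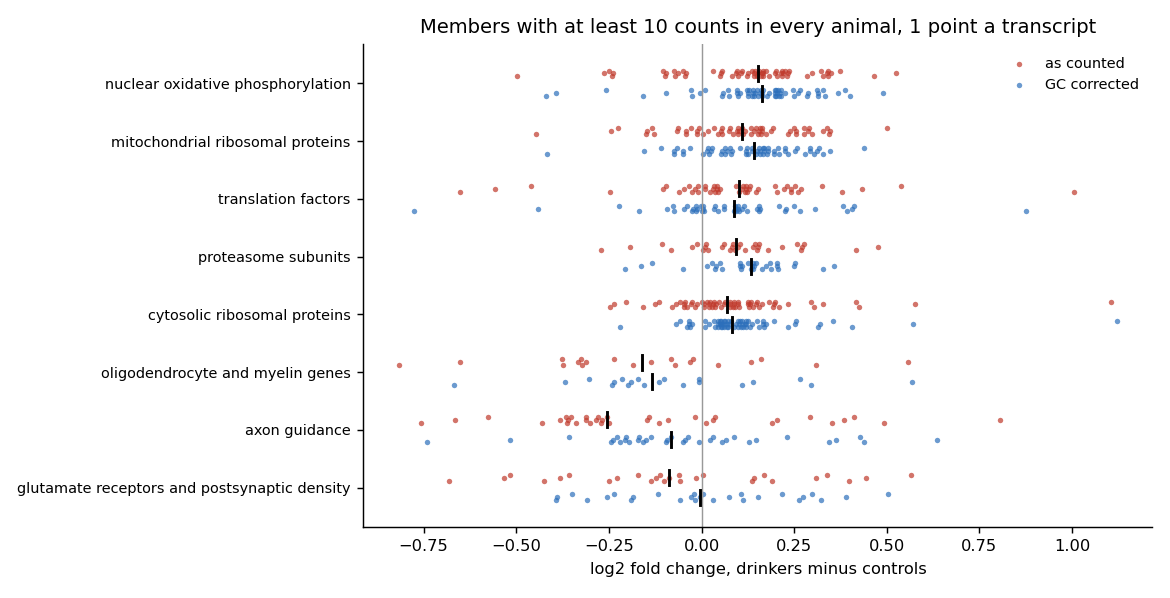
Log2 fold change of each list member with at least 10 counts in all 16 animals (points), as counted (red) and after the GC correction (blue), for 8 lists; black bars are medians. The medians of the upper 5 lists lay to the right of 0 under both, whereas those of axon guidance and of glutamate receptor genes lay nearer to 0 with the correction.

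Growth and lysosomal signaling gave changes in both directions. Of 32 genes of the mTOR complexes and their lysosomal amino acid sensors 4 rose and 4 fell. RHEB had 111.6 to 147.7 CPM (median 125.5) in drinkers and 87.4 to 115.1 CPM (median 97.6) in controls, and RRAGC (0.20) and RRAGD (0.44), which recruit mTORC1 to the lysosome, rose. FLCN, which had 27.2 to 43.6 CPM (median 31.9) in drinkers and 38.1 to 51.1 CPM (median 46.0) in controls, NPRL3 (−0.55), RPTOR (−0.20) and PRR5 (−0.49) fell. Among 18 subunits of the V-ATPase, the proton pump of the lysosome, ATP6V1A (0.34), ATP6V1D (0.30) and ATP6V1G1 (0.31) rose and ATP6AP1, ATP6V0E2 and ATP6V1B1 fell. Of 52 autophagy and lysosome genes 1 rose and 3 fell as counted, and 4 rose and 0 fell with the GC correction. Corrected, the counts were 4 and 3 for the mTOR list and 3 and 2 for the V-ATPase. Of these, 3 and 2 in the mTOR list and 2 and 2 in the V-ATPase had also passed as counted. RRAGC, RPTOR, PRR5, ATP6V1D and ATP6V0E2 did not pass with the correction.

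The VAP proteins are tethers that hold the endoplasmic reticulum against other membranes. Of 28 VAP proteins and partners, 5 fell and 1 rose as counted and 5 fell and 1 rose after the GC correction, 4 of the fallen being shared, and 22 did not pass as counted. The median was −0.25 as counted and −0.12 corrected. VAPB had 19.6 to 32.2 CPM (median 26.9) in drinkers and 30.0 to 45.0 CPM (median 34.8) in controls, a log2 fold change of −0.44 ± 0.11 as counted (SE; edgeR, adjusted p = 0.152) and −0.50 corrected (adjusted p = 0.423). VAPA (−1.15), OSBP2 (−0.51) and OSBPL3, at 0 in all 8 drinkers and in 5 controls, were the other 3 that fell under both, and MOSPD1 (0.57) rose. With the length trend removed too, 3 fell and 0 rose.

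In the nucleus, 4 of 56 histone and DNA modifying enzymes fell and 2 rose, 7.14% and 3.57% against 5.33% and 4.84% over all transcripts. The fallen included KMT2B, KMT2D and KMT2A of the KMT2 family of histone methyltransferases, and no other listed member of that family passed. KMT2D had 45.2 to 79.4 CPM (median 67.9) in drinkers and 73.8 to 100.8 CPM (median 92.7) in controls (−0.49 as counted, −0.34 corrected), and KMT2A 34.5 to 110 CPM (median 73.3) and 78.5 to 117.9 CPM (median 99.1; −0.39, then −0.42). HDAC5 was the other of the 4 fallen. The 3 KMT2 transcripts are long, at 8472 bases for KMT2B, 20728 for KMT2D and 16690 for KMT2A. With the length trend removed as well KMT2B stood at −0.19 and no longer passed the unadjusted threshold. Values of KMT2D and KMT2A in that fit are not reported here. Of 29 chromatin remodeling genes 3 rose and 3 fell, ATRX (1.33) among the risen, and 1 rose and 4 fell corrected. Of 36 subunits of RNA polymerase II and Mediator 2 rose and 6 fell, MED12, MED15, CDK9, MED27, POLR2A and CDK8, but 3 rose and 3 fell with the GC correction, under which MED15, MED27 and POLR2A did not pass. Of 84 splicing factors 8 rose and 4 fell, of 31 HECT and cullin ubiquitin ligase genes 3 rose and 4 fell, and of 327 zinc finger genes named ZNF 8 rose and 18 fell, 8 and 9 after the GC correction.

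The remaining lists held few changes. Among 17 immediate early genes FOSB (1.65), at 1.49 to 37.6 CPM in drinkers and 1.67 to 8.54 CPM in controls, and DUSP1 (0.28) rose. DUSP1 was also the 1 of 14 stress hormone genes to rise. Of 20 genes of alcohol and aldehyde metabolism ADH5 rose and ALDH7A1 (−0.74) fell. ADH5 had 89.3 to 118.5 CPM (median 112.4) in drinkers and 78.6 to 95.6 CPM (median 88.0) in controls. None of 38 antioxidant genes moved as counted, and SOD1, PRDX2, PRDX5 and GPX4 rose after the GC correction. Of 22 cholesterol genes 1 rose and 3 fell, with SREBF2 (−0.29), the master factor of that pathway, lower in every drinker than in any control. PFKL was the 1 of 15 glycolysis genes to fall as counted, where 2 rose and 0 fell with the GC correction. PER2 was the 1 of 21 clock genes to fall, and of 16 ELMO and DOCK genes ELMO1 (−0.92) fell and DOCK2 rose. PER2 was at 0 in all 8 drinkers and in several controls, with up to 12.3 CPM in a control. DOCK2 was at 0 in all 8 controls and in most drinkers, with up to 6.25 CPM in a drinker. Each passed the count filter through 1 group only, so no change is read from either.

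The change in cohort 1 was set against that of the second cohort, whose 9 drinkers and 3 controls followed the same protocol. By phenotype those drinkers were mostly Very Heavy, the others Binge or Heavy, whereas cohort 1 held no Binge drinker. Over the 13086 transcripts, 43.3% had the same direction in both cohorts, against 28.3% of the 633 higher and 28.4% of the 697 lower transcripts of cohort 1. These shares are as counted, with the GC trends of both cohorts left in. In cohort 2, 276 of 13769 transcripts had p under 0.05 (2.0%). A test of the difference between the effects (edgeR, interaction over 28 animals) gave 1325 transcripts with p under 0.05 (9.62%) and 2 with an adjusted p under 0.05 (0.0145%), TATDN1 and RHEB. TATDN1 had a log2 fold change of −0.25 in cohort 2, where drinkers had 17.4 to 27.5 CPM and controls 21.6 to 30.1 CPM, a difference between cohorts of 1.12 (adjusted p = 0.0398). RHEB had −0.26 in cohort 2, with 87.7 to 106.6 CPM in drinkers and 103.1 to 127.9 CPM in controls, a difference of 0.63 (adjusted p = 0.0398). STMN1 had 0.54 ± 0.53 (SE) in cohort 2, and the difference between cohorts of 2.07 did not pass (edgeR, adjusted p = 0.279). KMT2B, ZSWIM8 and ZC3H15 had 0.15, 0.13 and −0.15 in cohort 2, each opposite in sign to cohort 1. With the GC correction no difference between cohorts passed (1036 with p under 0.05 by edgeR), and DESeq2 called 152 without it, so the number rests on the test and on GC.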

How the data were processed

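RNA from a VTA punch of each animal was extracted, made into mRNA libraries and sequenced as paired-end reads. The authors trimmed the reads with Trim Galore 0.6.7 and quantified them with Salmon 1.9.0 on Mmul_10, and the estimated counts they deposited are not normalized. The table lists 16886 entries, 1 transcript a gene, so counts of other transcripts of a gene are not in its value, and how that transcript was chosen is not given in the sources used here. The 1 entry without a symbol (1.16e-05% of counts) was left out. Counts were rounded, and transcripts reaching 5 counts in 3 or more of 16 animals were tested with edgeR 4.0.16 (TMM, quasi-likelihood test, Benjamini-Hochberg adjustment at 0.05) under R 4.3.3. The SE is the log2 fold change over the square root of F. GC content and length came from the RefSeq annotation of Mmul_10 for 99.1% of the transcripts tested, and the GC and length corrections subtracted a loess trend (span 0.5) of each library's deviation as an offset. The 120 tested transcripts without a match, the 13 encoded by mitochondria included, were left as counted in that step. DESeq2 1.42.0, limma 3.58.1 and sva 3.50.0 gave alternatives, and Python 3.11.15 with scipy 1.17.1 the exact permutation tests. No 2 libraries of a group were the same (chi-square per degree of freedom of at least 47.1). The main fit, the GC slopes and the GC correction were tried on simulated data, and the other fits and tests were not. Each animal is a replicate.

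Members and the 52 gene lists were chosen with earlier results of these data known. Named genes are those past the adjusted threshold, the 12 with the lowest p in each direction among transcripts with at least 10 counts in every animal, up to 4 a list by p, and the dopamine and kappa opioid genes of the study, with other list members named where a list's calls are spelled out. ARRB2 did not pass the count filter. Some list members are not reported here by name.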

Additional observations from a re-analysis of the deposited data

Results flagged for a closer look

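In groups of 8 animals, 4 of 60 groups of values held 1 animal far from the others by Dixon's criterion, where chance gives about 1 in 20. Heavy-10209 had 43.6 CPM of FLCN against 27.2 to 33.7 CPM in the other drinkers. Control-10223 had 73.9 CPM of H2AX against 48.5 to 55.9 CPM in the other controls. Very Heavy-10214 had 27.9 CPM of KMT2B against 38.4 to 43.9 CPM, and 33.8 CPM of TRMT10C against 21.2 to 24.7 CPM, in the other drinkers. Both values of Very Heavy-10214 lay in the direction of the drinkers as a group, and the FLCN value of Heavy-10209 toward the controls.

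The effects of cohort 1 and cohort 2 differed past the adjusted threshold for 2 transcripts, TATDN1 (1.12 on the log2 scale, edgeR, adjusted p = 0.0398) and RHEB (0.63, adjusted p = 0.0398). Cohort 2 has 3 controls, and without each of them in turn the difference stayed at 0.99 to 1.23 for TATDN1 and 0.57 to 0.72 for RHEB, while the calls changed. Without Control-10241 or Control-10245 neither passed (edgeR, adjusted p = 0.214 and 0.304), and without Control-10250 both did (adjusted p = 0.0261). With the GC correction the differences were 0.93 for TATDN1 (adjusted p = 0.173) and 0.46 for RHEB (adjusted p = 0.535).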

How the results depend on the processing

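The number of transcripts past the adjusted threshold, 5 as reported, was 236 with DESeq2's Wald test and 132 in the fit of 4 groups over 28 animals, 3 each with limma-voom, without a filter and with at least 10 counts in every animal, 2 each with the GC correction and the dopamine neuron score, and 1 each with the GC slope as a covariate, the GC and length correction and the neuron score, the last 2 chosen after seeing the data. The 1 with the GC slope as a covariate was none of the 5 reported transcripts. Leaving out 1 animal gave 1 to 4, and 1 without Low-10210, Heavy-10213, Control-10217, Control-10220 or Control-10221. STMN1 passed without any single animal and under every alternative that gave it an adjusted p except the GC slope as a covariate (2.25, adjusted p = 0.331), DESeq2 giving none. By edgeR, TATDN1 lost its call without any of those 5 or without Control-10219 (adjusted p at most 0.0713), and also with the GC slope as a covariate (0.55, adjusted p = 0.962), the GC and length correction (0.65, 0.156) and the neuron score (0.86, 0.23), KMT2B kept it in 4 of the 16 omissions (adjusted p at most 0.0777), and ZSWIM8 and ZC3H15 in 0 of 16 (at most 0.142). Transcripts with p under 0.05, 1330 as reported, numbered 2186 without a filter, 848 with the GC correction, 772 with the GC and length correction, 640 with the GC slope, 860 with the neuron score and 2023 in the 28-animal fit, and 1146 to 1455 without 1 animal. Higher transcripts were 47.6% of them as reported, 34.3% with limma-voom, 28.9% with surrogate variables (median log2 fold change −0.12), 58.7% with the GC, 58.0% with the GC and length and 59.3% with the length correction. Groups that did not overlap fell from 28 to 9 transcripts with the GC correction. Differences between cohorts, 2 as reported, were 0 with the GC correction and 152 with DESeq2, and 0 to 4 without 1 cohort 2 control. The GC slope difference stayed between −0.153 and −0.118, with p at most 0.000932, under all alternatives run. No paired analysis was possible because drinkers and controls share no replicate numbers and the labels do not say which control was yoked to which drinker.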

Other observations

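Among the 28 transcripts whose groups did not overlap, MT2A, chosen after its values were seen, encodes a metallothionein, a small protein that binds zinc and copper. It had 2.40 to 6.26 CPM (median 3.58) in drinkers and 0.277 to 2.09 CPM (median 1.55) in controls, a log2 fold change of 1.55 ± 0.44 (SE; edgeR, adjusted p = 0.202), and 1.59 after the GC correction.

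Some transcripts were at 0 in most animals of one group only. In 81 transcripts at least 6 drinkers were at 0 while the control median was at least 20 counts, and in 58 the reverse held, but 0 transcripts were at 0 in all of one group and counted in every animal of the other. PLEKHA4, also chosen after its values were seen, was at 0 in all 8 drinkers and at up to 4.21 CPM (median 2.82) in controls, of which 1 was at 0. It passed the count filter only through the controls and was chosen for this pattern, so no p-value is read from it. Since the table lists 1 transcript a gene, a 0 refers to that transcript.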
